A study of Cucumis melo with 62 samples.

Results

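Fruit from the Uvalde, Texas, field were harvested in 2018 and again in 2019, and the libraries of both seasons are compared here. The 12 libraries were chosen by their labels, as all those of F39 and TTDV from Uvalde, out of the 38 libraries of these cultivars in 1 deposited table and 62 libraries in the whole study. The study sequenced fruit RNA of melon (Cucumis melo) from several fields and cultivars, and its labels place F39 and TTDV in Georgia, North Carolina, Arizona, California and Indiana (TTDV alone) in 2019 besides Uvalde. Each Uvalde group had 3 libraries. The groups were F39 2018, TTDV 2018, and the 2019 libraries labelled F39 and TTDV. The labels give F39 and TTDV as cultivar names with no further description, and they name no treatment. All were of fruit labelled wild type, picked at maturity about 45 days after flowering. The question the design poses is how far fruit of the same cultivars from the same place differed between years. F39 and TTDV counted equally in each year, so that an exchange of the cultivar labels within a year leaves the year difference as it is.

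Mature melon fruit carry out several programmes at the same time, including sugar storage in the flesh, carotenoid synthesis in orange-fleshed types, cell wall loosening and the making of aroma esters. In climacteric melons the gas ethylene drives softening, aroma and the separation of the fruit from the stalk, while other traits depend on it less. Temperature, light and water in the field are known to shift the pace of ripening, so fruit of equal age from different seasons need not be at an equal stage. Nothing in the files pairs the gene IDs with such roles: the reference gene table matched 0 of the IDs. Genes are therefore given by their ID, the labelled tissue was not checked against defining markers, and no ripening stage was read from these values. In whole-tissue RNA, fewer cells of a type cannot be told apart from less RNA per cell.

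The 12 libraries held 6251302 to 23992558 reads. Mean totals were 16032427 ± 6622378 (SD, n = 6) in 2018 and 16276399 ± 6001434 (SD, n = 6) in 2019, a difference that was not past the threshold in an exact two-sided permutation test (p = 0.942). The number of genes with a read (p = 0.647) and the share of reads in the 10 most abundant genes (p = 0.784) were not past it either in the same exact permutation test, whose smallest possible p was 0.00216, and the adjusted p was 0.942 for all 3 measures. Values called reads are reads recovered from the deposited values and divided by the library's size factor. A gene without a read in a library could have held up to 3 reads there, which is 1.68 to 6.76 normalised reads by library and covers counting error only. The labels do not say that libraries came from separate plants, so p-values measure the spread between libraries. For limma that spread was pooled over all 38 libraries of F39 and TTDV, unless stated otherwise.

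In 2 genes the Uvalde 2019 libraries went against their cultivar labels. Outside Uvalde 2019, MELO3C016167.2 separated the cultivars as labelled. It had 7795 reads or more in every F39 library there and 648 or fewer in every TTDV library. At Uvalde in 2018 it had 28094, 26654 and 18672 reads in F39 and 34.3, 103 and 229 in TTDV. In 2019 the libraries labelled F39 had 1045, 570 and 492 reads, and those labelled TTDV had 20690, 7521 and 18388. The libraries labelled TTDV were thus at or just below the F39 levels of the other groups, and those labelled F39 within or somewhat above the TTDV levels. MELO3C024745.2 stood the other way round: TTDV 2018 had 1452, 1449 and 659 reads and F39 2018 had 10.7, 3.71 and 1.37, while the libraries labelled F39 2019 had 840, 897 and 655 and those labelled TTDV 2019 had 0, 4.91 and 3.02. Outside Uvalde this gene separated the labels less cleanly, since F39 Georgia reached 526 reads. Both genes were chosen after their values were seen. Because of them, the 2019 groups are called labelled F39 and labelled TTDV, and the counts and the interaction test are given with both readings of the labels.

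Some libraries stood apart from their group. Across genes, labelled F39 2019 replicate 3 correlated with the other 2 of its group at r = 0.857 and 0.872, and was closest to a TTDV library of North Carolina (r = 0.976). Labelled TTDV 2019 replicate 2 correlated with its group at 0.885 and 0.905 and was closest to an F39 library of California (0.933). TTDV 2018 replicate 1 was closest to a TTDV library of California (0.973), though it also correlated at 0.967 with replicate 2 of its own group. TTDV 2018 replicate 3 correlated with the other 2 of its group at only 0.907 and 0.912, though replicate 2 was its closest library. The 2019 groups were the more scattered, with a median SD over genes of 0.461 and 0.419 log2-like units in labelled F39 and labelled TTDV 2019 against 0.302 and 0.289 in F39 and TTDV 2018. For the comparisons with 2019 libraries, the total number of genes called by limma is also given below without labelled F39 2019 replicate 3 and labelled TTDV 2019 replicate 2, except for the labelled groups of 2019 against each other.

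Each year was a single season at Uvalde, and the labels give no batch. The year therefore cannot be told apart from anything else that differed between the 2018 and 2019 libraries, such as harvest or library handling. Between the years, 3722 of 17383 genes differed (21.4% of those tested, limma, adjusted p under 0.05). Of these, 1993 were higher in 2018 (11.5%) and 1729 lower (9.95%). With libraries scaled to equal distributions the split turned, to 1896 higher and 1976 lower of 3872, so which direction was the more frequent depended on the scaling. Most differences were small: 1566 of the 3722 reached 1 unit on the log2-like scale, 291 reached 2 units and 19 reached 4. The 95% interval of the year difference lay within 1 unit either way for 10619 genes, or 61.1% of those tested. Without labelled F39 2019 replicate 3 and labelled TTDV 2019 replicate 2, 2882 genes were called, and 2157 of them were among the 3722. When the spread was estimated from the 12 Uvalde libraries alone the count was 1402, with 858 higher and 544 lower in 2018, and 1374 of these were among the 3722.

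Few genes kept all 6 libraries of 1 year above all 6 of the other. There were 476 such genes (2.74% of those tested), and 451 of them were also past the limma threshold (2.59%), 222 higher and 229 lower in 2018. The 4 genes described next are the largest differences among those 451, 2 in each direction.

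MELO3C025025.2 had the largest difference with the higher level in 2018. F39 2018 had 476436, 986847 and 514324 reads, TTDV 2018 had 115772, 68795 and 24970, labelled F39 2019 had 4703, 10629 and 6266, and labelled TTDV 2019 had 4553, 1987 and 6005. Every 2018 library exceeded every 2019 library, and within 2018 every F39 library exceeded every TTDV library. The mean of 2018 was 64.1-fold that of 2019, and the difference was 5.22 log2-like units (SE 0.65, limma adjusted p = 6.81e-06). The gene took 2.32% of all reads in the mean 2018 library and 0.0370% in 2019. It was within a wide range elsewhere, from 2654 to 421906 reads (median 77044) in the 26 libraries outside Uvalde, so all 3 F39 2018 libraries lay above that range.

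MELO3C017886.2 followed the same order of groups at lower levels. It had 8598, 9705 and 7157 reads in F39 2018, 1369, 784 and 688 in TTDV 2018, 55.4, 146 and 225 in labelled F39 2019 and 288, 12.8 and 104 in labelled TTDV 2019. The years did not overlap, and the F39 2018 libraries were the highest of the 12. Between years it differed by 4.33 units (SE 0.55, limma adjusted p = 8.1e-06), with a 34.1-fold ratio of the means. The 26 libraries elsewhere ran from 59.9 to 6329 reads with a median of 794, which is within the span of TTDV 2018.

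Lower in 2018 by the widest margin was MELO3C004373.2. F39 2018 had 14.6, 19.8 and 32.2 reads and TTDV 2018 had 9.81, 43.5 and 57.3. Labelled F39 2019 had 268989, 127913 and 170, and labelled TTDV 2019 had 853, 844606 and 1238. The 2019 libraries thus spread over more than 3 orders of magnitude while all stayed above 2018, and the highest of them was labelled TTDV 2019 replicate 2, one of the libraries that stood apart. The year difference was -7.91 units (SE 1.24, limma adjusted p = 0.000103), and between -9.55 and -6.31 when single libraries were left out. Outside Uvalde the gene never passed 58 reads in 26 libraries, and 5 of them had no read, so the high values were those of Uvalde 2019.

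MELO3C022883.2 was nearly silent outside that season. No read was found in the 26 libraries elsewhere or in 5 of the 6 of 2018, and TTDV 2018 replicate 3 had 3 reads (5.21 normalised). Labelled F39 2019 had 19979, 18564 and 13.3 normalised reads and labelled TTDV 2019 had 4146, 13362 and 1387. All 6 libraries of 2019 held reads, the lowest being labelled F39 replicate 3, the other library that stood apart. Its year difference was -7.37 units (SE 0.82, limma adjusted p = 1.05e-06). On the scale used here a gene with no read sits at the lowest value, so the size of this difference is not a fold change. The gene passed the filter for testing only through its 2019 libraries, so its p-values are a description and not separate support.

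**Figure D1:**
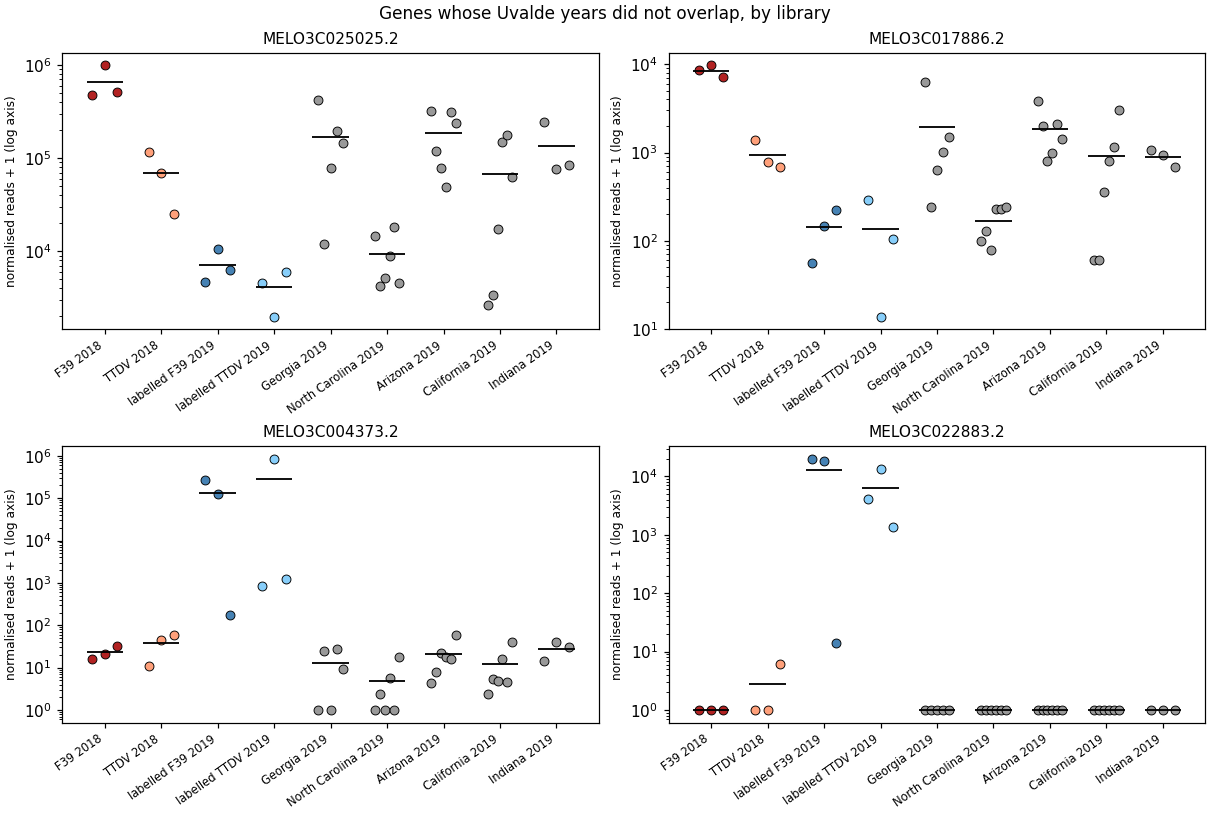
Normalised reads plus 1 on a log axis (y) in the 38 libraries of F39 and TTDV, grouped by Uvalde group or by location (x), for the 2 genes with the largest differences higher and the 2 lower in Uvalde 2018 than in 2019; points are libraries and bars are group means. MELO3C022883.2 lies at the floor in all 26 libraries outside Uvalde, while its Uvalde 2019 libraries run from 13.3 to 19979 reads.

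Differences were called more often among abundant genes. The share called rose from 9.57% of 1901 genes with fewer than 10 mean reads, through 18.7%, 24.1% and 26.0% in steps of 10 times the reads, to 32% of 169 genes with 10000 or more. The deposited scale compresses low counts, and the part of that compression in this trend was not tested. Below 1000 mean reads more genes were higher in 2018, 967 against 790 from 100 to 1000 reads, and above it more were lower, 479 against 331 from 1000 to 10000 reads.

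The read budget of the libraries shifted with these genes. As a description, since the same libraries chose them, the 1993 genes higher in 2018 took 22.1% to 29.1% of reads in F39 2018, 11% to 14.2% in TTDV 2018 and 3.57% to 7.79% in 2019. The 1729 genes lower in 2018 took 6.02% to 6.69%, 11.1% to 13% and 18.9% to 29.7%. In both measures TTDV 2018 lay between F39 2018 and the 2019 libraries without overlapping either.

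By difference in mean reads the leading genes were MELO3C025025.2 and MELO3C004373.2, described above, with MELO3C025027.2 and MELO3C024771.2 second in either direction. MELO3C025027.2 had 376251, 405120 and 263635 reads in F39 2018 and 111093, 61249 and 41797 in TTDV 2018. It had 41856, 35146 and 77704 in labelled F39 2019 and 155140, 56265 and 75306 in labelled TTDV 2019. F39 2018 alone stood above the rest, and TTDV 2018 overlapped with both 2019 groups. Its year difference was 1.21 units (SE 0.32, limma adjusted p = 0.00859), and was not past the threshold with the spread of the Uvalde libraries alone (adjusted p = 0.0607, limma). The libraries elsewhere had a median of 142983 reads.

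MELO3C024771.2 had 52842, 6482 and 2674 reads in F39 2018, 109948, 80767 and 28389 in TTDV 2018, 88920, 89609 and 353779 in labelled F39 2019, and 109134, 109806 and 131961 in labelled TTDV 2019. F39 2018 lay below every 2019 library, and TTDV 2018 overlapped with 2019. Between years it differed by -2.37 units (SE 0.60, limma adjusted p = 0.00631). It too missed the threshold with the spread of the Uvalde libraries alone (adjusted p = 0.0526, limma).

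The year difference was unequal between the groups that make it up. F39 2018 differed from labelled F39 2019 in 4572 genes (26.3% of those tested, limma), 2430 higher (14.0%) and 2142 lower (12.3%), and from labelled TTDV 2019 in 4810 (27.7%), 2508 higher (14.4%) and 2302 lower (13.2%). TTDV 2018 differed from labelled TTDV 2019 in 1381 genes (7.94%), 748 higher (4.30%) and 633 lower (3.64%), and from labelled F39 2019 in 9 (0.0518%), 6 higher (0.0345%) and 3 lower (0.0173%). F39 2018 thus differed from each 2019 group in more genes than TTDV 2018 did. With the spread of the Uvalde libraries alone the counts for F39 2018 were 2373 against labelled F39 and 2356 against labelled TTDV 2019. Without the 2019 libraries that stood apart they were 4705 and 3943, and TTDV 2018 against labelled TTDV 2019 had 1125. For comparison, TTDV and F39 differed within 2018 in 3729 genes (21.5%), and the labelled groups of 2019 differed from each other in 830 (4.77%). These cross pairings were added with the data known.

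The sizes of the differences varied less than these counts. Over all genes tested the median absolute difference was 0.54 units for F39 2018 against labelled F39 2019, 0.55 against labelled TTDV 2019, and 0.40 and 0.36 for TTDV 2018 against labelled TTDV and labelled F39 2019, at a median SE of 0.34 in each. The count of 9 does not show that the groups were alike, because only 7639 genes, 43.9% of those tested, had a 95% interval within 1 unit. In that pairing 3224 of the 17383 genes tested had an unadjusted limma p under 0.05, and 4274 in TTDV as labelled. For F39 2018 the numbers were 6699 against labelled F39 and 6775 against labelled TTDV 2019. Between the labelled groups of 2019 there were 3334. The count of 9 became 102, 20 and 0 without TTDV 2018 replicates 1, 2 and 3. It became 40 and 93 without labelled F39 2019 replicates 2 and 3. Without labelled TTDV 2019 replicate 2, whose part is only in the shared spread, it became 53. It was 153 without the 2019 libraries that stood apart, 2 with voom, which is limma's model for counts, and 0 with the spread of the Uvalde libraries alone. MELO3C022883.2 was among the 9 (difference -6.85 units, SE 1.16, limma adjusted p = 0.0129).

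**Figure D2:**
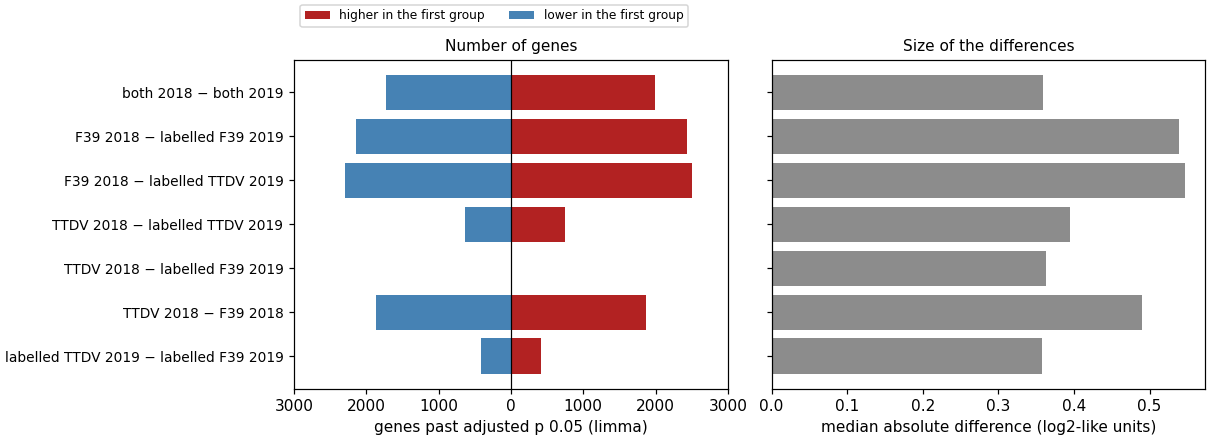
Genes past a limma adjusted p of 0.05 (left; higher in the first group named to the right of 0, lower to the left) and the median absolute difference over all genes tested (right; log2-like units) for the year comparison, the 4 pairings of a 2018 with a 2019 group, and the cultivar comparison in each year. F39 2018 differed from the 2019 groups in 4572 and 4810 genes, and TTDV 2018 in 1381 and 9.

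F39 2018 also stood apart in a principal component analysis of the 12 libraries. The leading component held 31.2% of the variance, and F39 2018 lay at 82.6 to 97.1 on it, TTDV 2018 at 9.71, -15.5 and -28.2, and the 2019 libraries between -75.6 and -13.9. It set F39 2018 against all other libraries and did not part TTDV 2018 from 2019. Year accounted for 21.2% of the sum of squares over all genes, and the spread within groups for 48.1%. Cultivar as labelled accounted for 13.5% and the interaction of year with cultivar for 17.2%, and these last 2 shares trade places if the 2019 labels are exchanged.

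**Figure D3:**
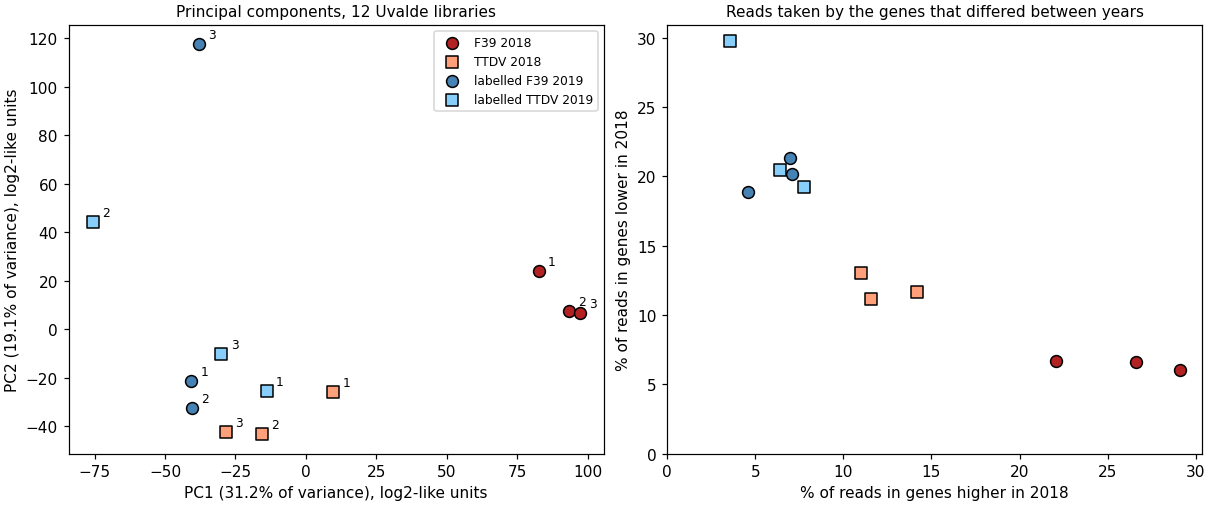
Left, the 12 Uvalde libraries on principal components 1 and 2 (log2-like units; numbers are replicates); right, the percent of each library's reads in genes called higher (x) and lower (y) in 2018. F39 2018 lies apart on component 1 at 82.6 to 97.1, and labelled F39 2019 replicate 3 lies far up component 2.

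With the labels as given, the F39 and TTDV year differences, which use separate libraries, both called 462 genes. That is 10.1% of the 4572 of F39, where 7.94% of all genes were called in TTDV, and 33.5% of the 1381 of TTDV, where 26.3% of all genes were called in F39. Of the 462, 226 moved the same way and 236 the opposite way. In TTDV the count of 1381 rested on single libraries: it fell to 802 without labelled TTDV 2019 replicate 2 and to 872 without TTDV 2018 replicate 3, and was 321 with the spread of the Uvalde libraries alone.

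**Figure D4:**
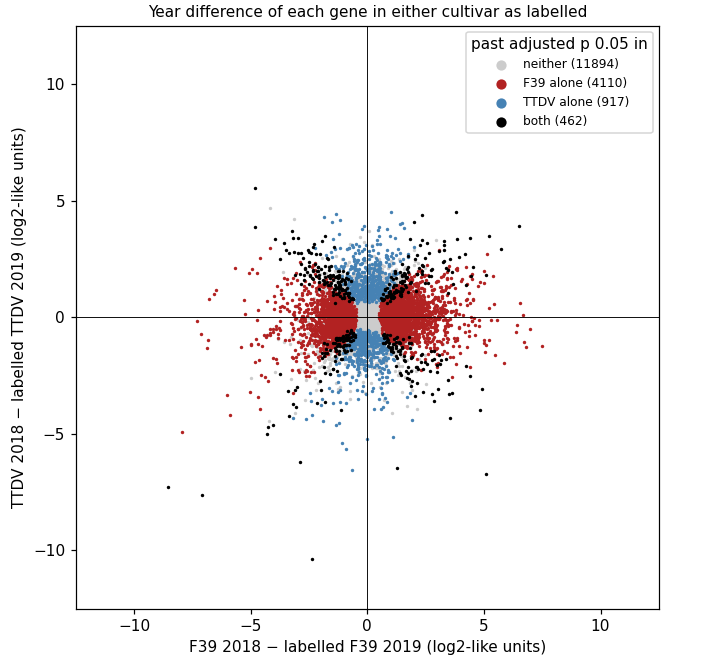
Year difference of each of 17383 genes in F39 (x) and in TTDV (y) as labelled, in log2-like units (2018 minus 2019), coloured by which limma comparison called it. The 462 genes called in both (black) lie in all 4 quadrants, 226 with the same sign and 236 with opposite signs.

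Genes already described as the largest year differences without overlap were left out of the next sets. Among the other genes whose 6 F39-labelled libraries did not overlap, MELO3C004214.2 had the largest difference with the higher level in 2018. It had 19210, 12624 and 6750 reads in F39 2018 and 19, 27 and 66.4 in labelled F39 2019. TTDV 2018 had 179, 138 and 36.5 and labelled TTDV 2019 had 1741, 49.1 and 199. F39 2018 was above all other Uvalde libraries, and the TTDV groups overlapped. The F39 difference was 7.5 units (SE 0.92, limma adjusted p = 1.85e-06), and F39 2018 also lay above labelled TTDV 2019, by 5.19 units (SE 0.92, limma adjusted p = 0.000155). The 26 libraries elsewhere ran from 39.5 to 10868 reads, a range that overlapped with F39 2018.

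MELO3C003294.2 had 40828, 43804 and 48633 reads in F39 2018, against 549, 1234 and 30.6 in labelled F39 2019. TTDV 2018 had 6168, 2294 and 5517, and labelled TTDV 2019 had 9372, 1607 and 14386. F39 2018 stood above every other library at Uvalde and above the highest of the 26 elsewhere (17650). The F39 difference was 6.95 units (SE 0.89, limma adjusted p = 3.37e-06), and it was 2.87 against labelled TTDV 2019 (SE 0.89, limma adjusted p = 0.0170).

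MELO3C015419.2 was lower in 2018 in the same comparison and varied widely within groups. F39 2018 had 0, 21 and 13 reads and labelled F39 2019 had 19156, 197718 and 114. TTDV 2018 had 15.9, 754 and 47806, and labelled TTDV 2019 had 108898, 8230 and 55141. TTDV 2018 thus overlapped with 2019 in replicates 2 and 3, whereas F39 2018 stayed below every 2019 library. The F39 difference was -7.94 units (SE 1.78, limma adjusted p = 0.00167), but missed the threshold with voom or with the spread of the Uvalde libraries alone, where the highest adjusted p was 0.0798 (limma). Against labelled TTDV 2019 it was -10.09 (SE 1.78, limma adjusted p = 0.000146). Elsewhere the median was 3.74 reads, with a highest value of 714.

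MELO3C027124.2 had 17.6, 19.8 and 30.1 reads in F39 2018, 802, 2076 and 1553 in TTDV 2018, 12353, 4320 and 10281 in labelled F39 2019, and 613, 3114 and 1962 in labelled TTDV 2019. F39 2018 was lowest and labelled F39 2019 highest, and the TTDV groups overlapped. The F39 difference was -7.30 units (SE 1.22, limma adjusted p = 8.67e-05), and that against labelled TTDV 2019 was -4.94 (SE 1.22, limma adjusted p = 0.00349).

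The genes with the largest year differences without overlap were left out here too. Among the other genes whose TTDV-labelled libraries did not overlap, the largest differences as labelled included both genes that went against the labels. MELO3C024745.2 differed by 5.55 units between TTDV 2018 and labelled TTDV 2019 (SE 0.70, limma adjusted p = 7.61e-06), and by 0.48 against labelled F39 2019 (SE 0.70, limma adjusted p = 0.751). MELO3C016167.2 differed by -6.74 units (SE 0.56, limma adjusted p = 2.26e-09) with the labels as given and by -2.40 against labelled F39 2019 (SE 0.56, limma adjusted p = 0.0735). With both cultivars weighted equally, neither gene passed the year threshold (adjusted p = 0.624 and 0.137, limma).

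MELO3C001944.2 was instead lowest in labelled TTDV 2019 among the Uvalde groups. TTDV 2018 had 2044, 1359 and 1239 reads and labelled TTDV 2019 had 33.8, 21.6 and 60.5, while F39 2018 had 601, 842 and 1190 and labelled F39 2019 had 354, 727 and 239. Labelled TTDV 2019 overlapped with no other Uvalde group, but F39 California, at 37.2, 46.0 and 164 reads, and TTDV North Carolina replicate 3, at 39.5, were as low or nearly so. The difference was 4.51 units for TTDV as labelled (SE 0.68, limma adjusted p = 8.98e-05), 3.70 for F39 2018 against labelled TTDV 2019 (SE 0.68, limma adjusted p = 0.000238), and 1.02 for F39 as labelled (SE 0.68, limma adjusted p = 0.278).

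Whether the year difference depended on cultivar was tested as an interaction with both readings of the 2019 labels. It was past the threshold in 2499 genes (14.4% of those tested, limma) with the labels as given and in 1880 (10.8%) with them exchanged. The count as labelled was 1136 with the spread of the Uvalde libraries alone and 3079 without the 2019 libraries that stood apart. The exchanged count fell to 985 without those libraries, to 1242 without TTDV 2018 replicate 2, to 1252 without TTDV 2018 replicate 3, and to 195 with the spread of the Uvalde libraries alone. The 4 genes described next passed the test with either reading, but the sign of the interaction turns with the labels for MELO3C017072.2 and MELO3C018417.2.

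The cultivar gap of MELO3C010774.2 was wide in 2018 and not detected between the 2019 groups. F39 2018 had 4217, 3854 and 5423 reads and TTDV 2018 had 24.5, 13.2 and 29.5. Labelled F39 2019 had 77.3, 42.9 and 278, and labelled TTDV 2019 had 74.3, 42.2 and 344. F39 2018 exceeded every other library of the 38, whose highest elsewhere was 625, and the 2019 groups overlapped. TTDV differed from F39 by -6.44 units in 2018 (SE 0.81, limma adjusted p = 3.74e-06) and by 0.07 as labelled in 2019 (SE 0.81, 95% interval -1.59 to 1.74). The interaction was -6.52 as labelled (SE 1.15, limma adjusted p = 0.000272) and -6.37 with labels exchanged (SE 1.15, limma adjusted p = 0.00106).

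MELO3C009034.2 had 0.767, 18.6 and 19.8 reads in F39 2018 and 6264, 58254 and 16671 in TTDV 2018. Labelled F39 2019 had 22529, 66086 and 65.1, and labelled TTDV 2019 had 32715, 23906 and 36424. F39 2018 was below every other Uvalde library, the next being labelled F39 2019 replicate 3. In the 26 libraries elsewhere it had at most 96.4 reads and none in 11 of them, so the high levels were those of TTDV 2018 and Uvalde 2019. The interaction was 6.39 units as labelled (SE 1.73, limma adjusted p = 0.0128) and 11.46 exchanged (SE 1.73, limma adjusted p = 0.000170). The first was lost with voom, with the spread of the Uvalde libraries alone and without labelled F39 2019 replicate 2, where the adjusted p was 0.0527 (limma), and the second with the spread of the Uvalde libraries alone, at 0.0573.

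MELO3C017072.2 and MELO3C018417.2 had the wider gap in 2019. MELO3C017072.2 had 19.2, 1.24 and 10.3 reads in F39 2018 and 0, 2.64 and 60.8 in TTDV 2018, then 1424, 42.1 and 23.9 in labelled F39 2019 and 78871, 59746 and 22351 in labelled TTDV 2019. Labelled TTDV 2019 was above all other libraries, and the 26 elsewhere held no more than 15.9 reads. The labelled groups of 2019 differed by 8.04 units (SE 0.72, limma adjusted p = 1.32e-08) and the 2018 groups by 0.02 (SE 0.72, limma adjusted p = 0.992). Its interaction was -8.02 as labelled (SE 1.02, limma adjusted p = 2.95e-06) and 8.05 exchanged (SE 1.02, limma adjusted p = 1.79e-05), and the exchanged value missed the threshold with voom (adjusted p = 0.0761).

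MELO3C018417.2 was the steadiest of these genes within groups. It had 113, 132 and 280 reads in F39 2018, 164, 203 and 118 in TTDV 2018, 278, 156 and 105 in labelled F39 2019, and 7641, 7559 and 6263 in labelled TTDV 2019. The other 3 groups overlapped with each other, and the 26 libraries elsewhere, from 79.5 to 342 reads, covered their levels. All 3 libraries of labelled TTDV 2019, including replicate 2, which stood apart on other measures, lay above that range. The gap between the labelled groups of 2019 was 5.15 units (SE 0.27, limma adjusted p = 1.2e-13) and that of 2018 was -0.03 (SE 0.27, 95% interval -0.59 to 0.53). The interaction was -5.18 units as labelled (SE 0.39, limma adjusted p = 1.32e-10) and 5.11 exchanged (SE 0.39, limma adjusted p = 1.28e-09).

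**Figure D5:**
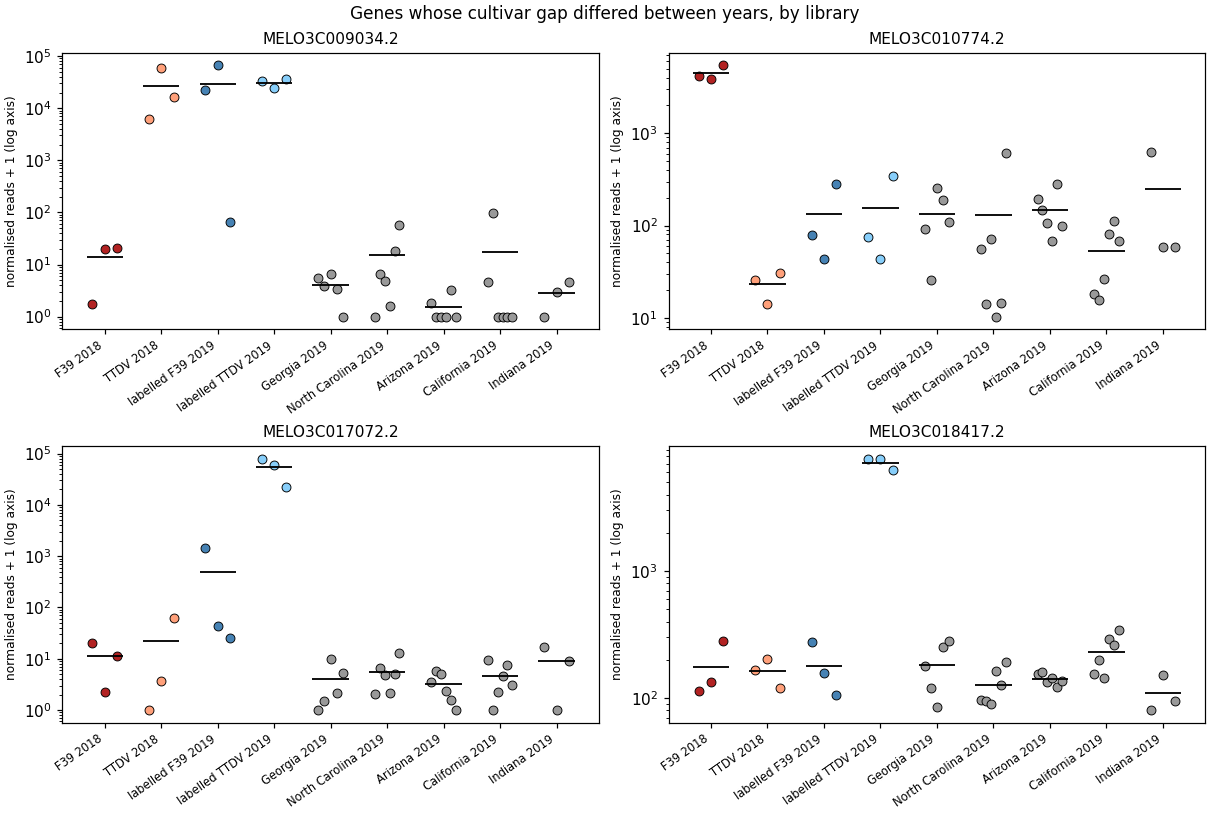
Normalised reads plus 1 on a log axis (y) in the 38 libraries, grouped by Uvalde group or by location (x), for the 2 genes with the wider cultivar gap in 2018 (top) and the 2 with the wider gap in 2019 (bottom); points are libraries and bars are group means. For MELO3C018417.2 only labelled TTDV 2019, at 6263 to 7641 reads, leaves the range of the other libraries.

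To see on which side each Uvalde season lay, both were compared with Georgia, North Carolina, Arizona and California in 2019 (23 libraries, 8 groups weighted equally). The comparisons share those 23 libraries, so they are given side by side and not set against each other. Uvalde 2018 differed from these fields in both place and year, which cannot be told apart, and Uvalde 2019 in place within the same year. Uvalde 2018 differed from the other fields in 1813 genes (10.4% of those tested, limma), 1325 higher (7.62%) and 488 lower (2.81%). Uvalde 2019 differed in 3536 (20.3%), 2099 higher (12.1%) and 1437 lower (8.27%). The surplus of higher genes rested on the scaling: with libraries scaled to equal distributions the splits were 816 higher and 855 lower for 2018 and 1748 higher and 1987 lower for 2019. The 2018 count dropped to 1014 without F39 2018 replicate 2, to 1079 without F39 2018 replicate 3 and to 1067 without TTDV 2018 replicate 3, and was 1179 with a stricter filter on low values. Without the 2019 libraries that stood apart the counts were 2586 for Uvalde 2018, by way of the shared spread, and 3398 for Uvalde 2019.

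Some genes of the year difference were past the threshold from the other fields in 2018 and not in 2019. MELO3C010317.2 had 996, 2650 and 1963 reads in F39 2018, 364, 339 and 188 in TTDV 2018, 42.6, 129 and 17.3 in labelled F39 2019 and 4.50, 7.86 and 3.02 in labelled TTDV 2019. The years did not overlap. It lay 2.65 units above the other fields in 2018 (SE 0.49, limma adjusted p = 0.000823) and -1.26 from them in 2019 (SE 0.49, limma adjusted p = 0.0675). The median of those fields was 135 reads and their highest library had 680, so F39 2018 lay above them all and TTDV 2018 did not. The year difference was 3.91 units (SE 0.62, limma adjusted p = 0.000104).

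MELO3C003731.2 had 2023, 8531 and 11813 reads in F39 2018, 233, 442 and 370 in TTDV 2018, 146, 250 and 25.2 in labelled F39 2019 and 47.3, 128 and 65.5 in labelled TTDV 2019. The F39 2018 libraries were again highest, and TTDV 2018 overlapped slightly with labelled F39 2019. It was 2.63 units above the other fields in 2018 (SE 0.38, limma adjusted p = 5.5e-05) and -0.95 in 2019 (SE 0.38, limma adjusted p = 0.0719), with a year difference of 3.59 (SE 0.48, limma adjusted p = 1.42e-05). The other fields had 17.9 to 1993 reads (median 268), so every F39 2018 library lay above that range and TTDV 2018 within it.

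MELO3C022772.2 and MELO3C021164.2 were low in 2018. MELO3C022772.2 had 13.8, 22.3 and 7.52 reads in F39 2018, 480, 668 and 928 in TTDV 2018, 3254, 557 and 58822 in labelled F39 2019 and 417, 6158 and 901 in labelled TTDV 2019. F39 2018 lay below the lowest of the other 26 libraries (82), and TTDV 2018 overlapped with 2019 and with Arizona, at 82 to 911 reads. Its year difference was -3.91 units (SE 0.86, limma adjusted p = 0.00219) and -2.47 without the 2019 libraries that stood apart (limma adjusted p = 0.0269). Against the other fields it was -3.91 in 2018 (SE 0.68, limma adjusted p = 0.000464) and -0.01 in 2019 (SE 0.68, 95% interval -1.40 to 1.39).

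MELO3C021164.2 had 5436, 266 and 268 reads in F39 2018, 2258, 2057 and 502 in TTDV 2018, 2707, 2427 and 57061 in labelled F39 2019 and 18373, 70885 and 15537 in labelled TTDV 2019. Only the highest library of 2018, F39 replicate 1, passed the lowest of 2019. The year difference of -3.76 units (SE 0.91, limma adjusted p = 0.00475) was just short of the threshold without the 2019 libraries that stood apart (adjusted p = 0.0501). It was -3.31 from the other fields in 2018 (SE 0.73, limma adjusted p = 0.00396) and 0.45 in 2019 (SE 0.73, 95% interval -1.04 to 1.94). Those fields ran from 1283 to 124944 reads (median 10570). Only F39 2018 replicates 2 and 3 and TTDV 2018 replicate 3 lay below that range.

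Other genes of the year difference were past the threshold from the other fields in 2019 and not in 2018. The leading genes that were higher in 2019 were MELO3C004373.2 and MELO3C022883.2, already described. They lay 8.67 and 7.5 units above the other fields in 2019 (SE 0.99 and 0.65, limma adjusted p = 4.19e-07 and 6.85e-09) and 0.75 and 0.13 units in 2018 (adjusted p = 0.682 and 0.932).

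MELO3C010662.2 and MELO3C017382.2 were lower in 2019. MELO3C010662.2 had 603, 2182 and 2385 reads in F39 2018 and 408, 187 and 4249 in TTDV 2018, and 44.8, 86.5 and 91.7 in labelled F39 2019 and 54, 40.3 and 30.2 in labelled TTDV 2019. The years did not overlap, and the 2018 cultivars did. Against the other fields, whose median was 938 reads, it was -2.95 units in 2019 (SE 0.50, limma adjusted p = 0.000131) and 0.65 in 2018 (SE 0.50, limma adjusted p = 0.439). Between years it differed by 3.61 units (SE 0.63, limma adjusted p = 0.000301). Among the other fields, F39 California, at 46.8, 68.6 and 191 reads, and TTDV North Carolina replicate 3, at 58.4, overlapped with Uvalde 2019.

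MELO3C017382.2 had 2756, 2100 and 1501 reads in F39 2018, 1984, 389 and 78.2 in TTDV 2018, 29.1, 21.4 and 54.5 in labelled F39 2019 and 185, 36.3 and 73.6 in labelled TTDV 2019. A single library of each year overlapped. It was -2.63 units from the other fields in 2019 (SE 0.54, limma adjusted p = 0.000938) and 0.86 in 2018 (SE 0.54, limma adjusted p = 0.322), with a year difference of 3.50 (SE 0.67, limma adjusted p = 0.000743). Of those fields, North Carolina, at 30.3 to 163 reads, and F39 California, at 31.4 to 187, overlapped with Uvalde 2019. F39 Arizona did too, at 11 to 692 reads. Georgia, at 280 to 4821 reads, TTDV Arizona, at 639 to 5218, and TTDV California, at 3022 to 3586, lay above Uvalde 2019.

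No gene was found that was without a read in all 6 libraries of 1 year and had more than 3 reads in each library of the other, in either direction. Of the 17383 genes tested, 29 had no read in any 2019 library and 20 had none in any 2018 library, at 97658396 and 96194564 reads in all. Among the 3722 past the year threshold were 13 and 6 of these, where 21.4% of all genes tested were past it.

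MELO3C024572.2 had 24.5, 23.5 and 26.7 reads in F39 2018, 4.91, 1.32 and 1.74 in TTDV 2018 and none in 2019. F39 2018 carried most of the signal, from 32, 19 and 39 reads before scaling. Against the limit that 0 reads over the 6 libraries of 2019 allows, its 2018 mean was at least 28.7-fold higher, and the year difference was 1.06 units (SE 0.15, limma adjusted p = 3.18e-05). MELO3C024572.2 passed the filter for testing only through its F39 2018 libraries, so its p-value is a description and not separate support. MELO3C015899.2 had 7.67, 4.95 and 69.8 reads in F39 2018, 3.07, 1.32 and 3.48 in TTDV 2018 and none in 2019. F39 2018 replicate 3 held most of them. Its mean was at least 31.4-fold higher by the same limit (0.96 units, SE 0.24, limma adjusted p = 0.00600).

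The genes without a read in 2018 were as uneven in 2019. MELO3C034731.2 had 164, 113 and 1.33 reads in labelled F39 2019 and 2.25, 90.4 and 0 in labelled TTDV 2019, a mean at least 135-fold higher than the limit for 2018 (-1.69 units, SE 0.35, limma adjusted p = 0.00126). MELO3C034005.2 had 662, 1.59 and 0 reads in labelled F39 2019 and 0, 13389 and 220 in labelled TTDV 2019. Its high value came from labelled TTDV 2019 replicate 2, without which the year difference moved from -3.17 (SE 0.86, limma adjusted p = 0.00978) to -1.90 units (limma adjusted p = 0.0266). Outside Uvalde neither gene passed 0.820 normalised reads. Both missed the threshold with the spread of the Uvalde libraries alone, and MELO3C034005.2 also with voom. Both passed the filter for testing only through the 2019 libraries where they were high. Their p-values are therefore a description and not separate support.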

How the data were processed

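The deposited table holds values on a log2-like scale, variance-stabilised by the authors. DESeq and DESeq2 appear, without versions, in the submitters' processing notes. The aligner, read counter, build and gene models were not given in the sources used here. With v the lowest value (4.182278) and r = 2 to the power (value - v), normalised reads are 2 to the power v times (r + 1/r - 2). This returned whole reads for at least 99.9733% of values per library (tolerance 0.05), with totals of 6251302 to 31333150. A doubling from 10, 100 and 1000 reads moves the value by 0.405, 0.812 and 0.975, which understates differences of genes with few reads.

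Genes with at least 3 of 38 libraries at or above 1 unit over the floor, or about 9.08 normalised reads, were tested, 17383 of 29980. Tests used limma 3.58.1 (R 4.3.3) on the deposited values, with 1 coefficient for each of 13 groups, so that all 38 libraries share an estimate of spread, empirical Bayes with trend and robust settings, and Benjamini-Hochberg adjustment over all genes tested. The steps were tested on simulated data. The column names mapped every library, with 0 columns left over. The labels give no batch. The table of Weslaco libraries was not used here.

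Alternatives were no filter, a filter of 3 units (about 111 normalised reads), quantile normalization, no trend and robust settings, sample weights, voom on the recovered reads, the Uvalde groups alone, and leaving out libraries. Leaving out both 2019 libraries that stood apart was chosen after seeing the data. The libraries and tests were chosen with earlier results of these data known. Named genes have the largest differences past the threshold that meet the condition stated with each, at most 2 each way, because IDs have no names here. Genes already named for the largest year differences without overlap were left out of the F39 and TTDV sets. The rule for genes without a read in 1 year took the highest lowest library in the other, with ties broken by the median.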

Additional observations from a re-analysis of the deposited data

Results flagged for a closer look

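In 3 of 34 groups of named genes 1 library lay far from the other 5 of its year, where chance flags about 1 in 20 groups. MELO3C022883.2 had 5.21 normalised reads in TTDV 2018 replicate 3 and none in the rest of 2018. MELO3C024771.2 had 353779 in labelled F39 2019 replicate 3, a library that stood apart on the whole, and the next highest value of 2019 was 131961. MELO3C015899.2 had 69.8 in F39 2018 replicate 3.

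The year difference differed between the cultivars as labelled in 2499 genes by the interaction test, and in 1880 with the 2019 labels exchanged. For MELO3C016167.2 and MELO3C024745.2, which go against the labels, the TTDV minus F39 value of that difference was -11.84 and 10.35 units. Genes whose F39 2018 level stood out among the Uvalde libraries, though not always from other fields, had -8.75 (MELO3C004214.2), -7.45 (MELO3C003294.2), -6.52 (MELO3C010774.2), -3.60 (MELO3C003731.2), -3.22 (MELO3C025027.2), -1.08 (MELO3C024572.2), 5.88 (MELO3C022772.2), 6.39 (MELO3C009034.2) and 7.12 (MELO3C027124.2). Genes whose labelled TTDV 2019 level stood out among the Uvalde libraries had -8.02 (MELO3C017072.2), -5.18 (MELO3C018417.2) and 3.49 (MELO3C001944.2).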

How the results depend on the processing

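No paired analysis was possible because the labels and columns carry no replicate number. Of 669 alternative values for the 32 results on single genes, 656 kept their direction and side of the threshold, 13 lost the call and 0 turned; the cause was not tested. Sample weights raised the counts to 5637 (year), 7326 (F39), 2646 (TTDV), 4810 and 2840 (interaction as labelled and exchanged), 4201 and 6498 (Uvalde 2018 and 2019 against other fields) and 1429 (TTDV 2018 against labelled F39 2019). With the Uvalde groups alone they were 1402, 2373, 321, 1136 and 195 for the first 5 of these, 2356 for F39 2018 against labelled TTDV 2019 and 0 for TTDV 2018 against labelled F39 2019 (1968 at an unadjusted p under 0.05). Fewer libraries then set the spread. Voom gave 819 (TTDV), 1190 (exchanged interaction) and 2 for the last pairing. Without labelled F39 2019 replicate 3 and its closest library the counts were 2687 (TTDV), 2790 (Uvalde 2018 against other fields) and 141 (last pairing), and without both 2019 libraries that stood apart 985 (exchanged interaction) and 153 (last pairing). The last pairing, at 9 genes, also had 37 with quantile normalization, 14 with no filter and 23 with the stricter filter, which gave 1179 for Uvalde 2018 against other fields. Exchanging the 2019 labels turns the 1381 of TTDV into 9. The share of reads in the 100 most abundant genes was -1.44 percentage points in 2018 minus 2019 (p = 0.578, exact permutation test), where that of the top 10 was 0.413. Leaving out single libraries gave 2666 to 4234 for the year, 3294 to 4922 for F39, 802 to 1837 for TTDV, 3356 to 5298 and 0 to 102 for the crossed pairings, 1909 to 2907 and 1242 to 2031 for the interactions, and 1014 to 2197 and 2614 to 3965 against other fields. With 3 libraries a group, counts depend on the spread borrowed from other groups, and low counts are compressed by the scale.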
